A study of Mus musculus with 16 samples.

Results

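The genes described here are 38 interferon-stimulated genes: antiviral effectors, RNA sensors, interferon-inducible GTPases, chemokines and feedback regulators. They were chosen by name, with earlier results of these data known. A gene counted as measured where the array had a probe set that the platform annotation assigns to that gene alone. This held for 36 of the 38, out of 19938 genes tested in the series. Irgm2 shared its probe set with Igtp, and Gbp6 shared its probe set with other guanylate-binding proteins, so neither was measured singly. Oas1a had a probe set of its own and a second one shared with Oas1g, which was not used.

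Interferons are secreted cytokines that signal through Janus kinases and STAT proteins. Type I interferons, which bind the receptor chains Ifnar1 and Ifnar2, act on genes with the interferon-stimulated response element (ISRE), whereas interferon gamma, made mostly by T and natural killer cells, acts first on genes with the gamma-activated sequence (GAS). Intestinal epithelial cells also respond to type III interferons, which act on many of the same genes as type I. The genes were therefore parted by textbook knowledge into 21 type I genes, 6 genes known to respond to both types and 9 gamma type genes (11 listed). The classes overlap in nature, since Cxcl10, Irgm1 and Socs1, for instance, can also be induced by type I interferon.

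RNA came from isolated colonic epithelial cells of C57BL/6 mice aged 70 days. The dam and the offspring each carried either 1 or no functional allele of Pigr, the polymeric immunoglobulin receptor that carries secretory IgA (SIgA) across epithelia; no wild-type mice were among the groups used. Pigr+/- offspring of Pigr+/- dams had both passive SIgA from milk and active SIgA of their own (the passive and active group). Pigr-/- offspring of Pigr+/- dams had passive SIgA only, Pigr+/- offspring of Pigr-/- dams had active SIgA only, and Pigr-/- offspring of Pigr-/- dams had neither. Each of these 4 SIgA groups either received no treatment or drank dextran sulfate sodium (DSS) at 2% over 8 days. DSS is a polymer that injures the colon epithelium. Each of the 8 resulting groups was measured on 2 arrays, replicates 1 and 2, and each array held pooled RNA of 3 different mice, so that the spread between replicates is a spread between pools. Values are log2 intensities, and a difference of 1 is a 2-fold change.

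The promoters of the genes show which of the 2 elements stand near their start sites. RefSeq promoter windows of the build GRCm38.p6, running from 250 bases before to 50 bases after a transcript start, were found for 25 of the 36 genes. The ISRE core was searched as GAAA, any 2 bases and again GAAA, and the GAS core as TTCNNNGAA, each on both strands; the GAS core reads the same on either strand. Promoters of genes whose expression rose with DSS are printed, those of the 2 type I and the 2 gamma type genes with the smallest p among those that held a match. Capitals mark the matches, and each window is written 5′ to 3′ on the strand of its gene.
Ifit2 (chr19:34550444-34550743, plus strand): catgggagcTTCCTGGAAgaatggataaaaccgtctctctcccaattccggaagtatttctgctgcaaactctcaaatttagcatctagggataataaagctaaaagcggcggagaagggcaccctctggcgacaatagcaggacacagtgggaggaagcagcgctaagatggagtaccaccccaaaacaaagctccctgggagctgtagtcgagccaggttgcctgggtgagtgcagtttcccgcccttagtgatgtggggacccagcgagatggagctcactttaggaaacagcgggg
Eif2ak2 (chr17:78882523-78882822, minus strand): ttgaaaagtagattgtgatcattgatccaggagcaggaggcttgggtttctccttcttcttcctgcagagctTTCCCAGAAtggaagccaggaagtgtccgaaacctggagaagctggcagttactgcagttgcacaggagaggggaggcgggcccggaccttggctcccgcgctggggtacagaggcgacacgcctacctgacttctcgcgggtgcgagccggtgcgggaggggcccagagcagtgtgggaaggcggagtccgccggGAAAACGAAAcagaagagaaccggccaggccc
Gbp5 (chr3:142496684-142496983, plus strand): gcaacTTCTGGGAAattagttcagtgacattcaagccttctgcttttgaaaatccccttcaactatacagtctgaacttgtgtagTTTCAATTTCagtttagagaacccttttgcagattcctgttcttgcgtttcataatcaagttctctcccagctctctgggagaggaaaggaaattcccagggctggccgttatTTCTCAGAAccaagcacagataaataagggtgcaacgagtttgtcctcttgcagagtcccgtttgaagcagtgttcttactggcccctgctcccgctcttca
Irgm1 (chr11:48871371-48871670, minus strand): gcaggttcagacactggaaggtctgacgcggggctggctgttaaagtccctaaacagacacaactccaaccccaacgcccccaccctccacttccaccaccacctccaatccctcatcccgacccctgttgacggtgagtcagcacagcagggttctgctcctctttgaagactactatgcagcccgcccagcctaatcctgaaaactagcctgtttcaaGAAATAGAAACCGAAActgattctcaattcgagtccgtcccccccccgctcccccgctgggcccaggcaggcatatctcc

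Ifit2 held 1 GAS core, TTCCTGGAA, which began 241 bases before the start, and no ISRE core in this window or in its other window. Eif2ak2 held the GAS core TTCCCAGAA 178 bases before the start and the ISRE core GAAAACGAAA 18 bases beyond the first base of the transcript. Gbp5 held GAS cores 245 and 52 bases before the start, TTCTGGGAA and TTCTCAGAA, and between them an ISRE core on the opposite strand, TTTCAATTTC, at 165 bases. Irgm1 held 2 overlapping ISRE cores, GAAATAGAAA and GAAACCGAAA, 30 and 24 bases before the start. Over the class, the ISRE core stood in 10 of 15 matched type I genes (66.7%), in 6 of 7 gamma type genes (85.7%) and in 0 of 3 genes of both types, against 3.44% of all 32851 windows. The GAS core stood in 4 of 15, 2 of 7 and 1 of 3, against 8.3% of all windows. A gene counted where any of its windows held the core, whereas the 3.44% and 8.3% are shares of single windows. The 25 genes had 27 windows. Among the matched genes, the ISRE core stood in 3 of the 6 that rose with DSS and in 13 of the 19 that were not called, and the GAS core in 3 of 6 and 4 of 19. A match describes letters only. The Cxcl9 window held neither core.

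The arrays carried the colonic epithelial signature of their label: all 12 epithelial markers, among them Epcam, Cdh1, Vil1 and Krt20, stood at or above the 85th percentile of genes on every array. Pigr was at 12.18 to 12.46 on the 8 arrays of Pigr+/- offspring and at 11.34 to 11.7 on the 8 arrays of Pigr-/- offspring, with no overlap. The Pigr signal of Pigr-/- offspring thus stayed far above the array medians of 6.678 to 6.825, and the sources used here do not say whether its probes lie in the altered part of the gene. The 2 arrays of the untreated passive and active group stood apart from the other 14: the mean over 1015 olfactory receptor genes was 5.32 and 5.49 there, against 4.48 to 4.92 elsewhere. The pools of the untreated active only group differed most, with a median gap over all genes of 0.24 between replicates against 0.11 to 0.21 in the other groups. Results are therefore also given without the first group, and without it and replicate 1 of untreated active only. The gap does not show which pool of untreated active only is unusual. Replicate 1 was the lower pool for most of the genes described, so leaving it out lowers their difference with DSS. The fit without the first group and replicate 2 was not made.

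Averaged over the 4 SIgA groups, 11 of the 36 genes rose with DSS and none fell (limma, adjusted p under 0.05), where 6.4% of all genes rose and 6.73% fell. The rise was mostly that of gamma type genes, 5 of 9, with a median difference of 0.56, and of genes of both types, 4 of 6, with a median of 0.42. Of the type I genes, 2 of 21 rose, and their median was 0.07, against 0 for all genes tested. All 9 gamma type genes and 14 of the 21 type I genes lay above 0; the classes were not tested against each other. In RNA of a whole cell preparation, a larger number of cells of one type and more RNA per cell cannot be told apart.

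**Figure D1:**
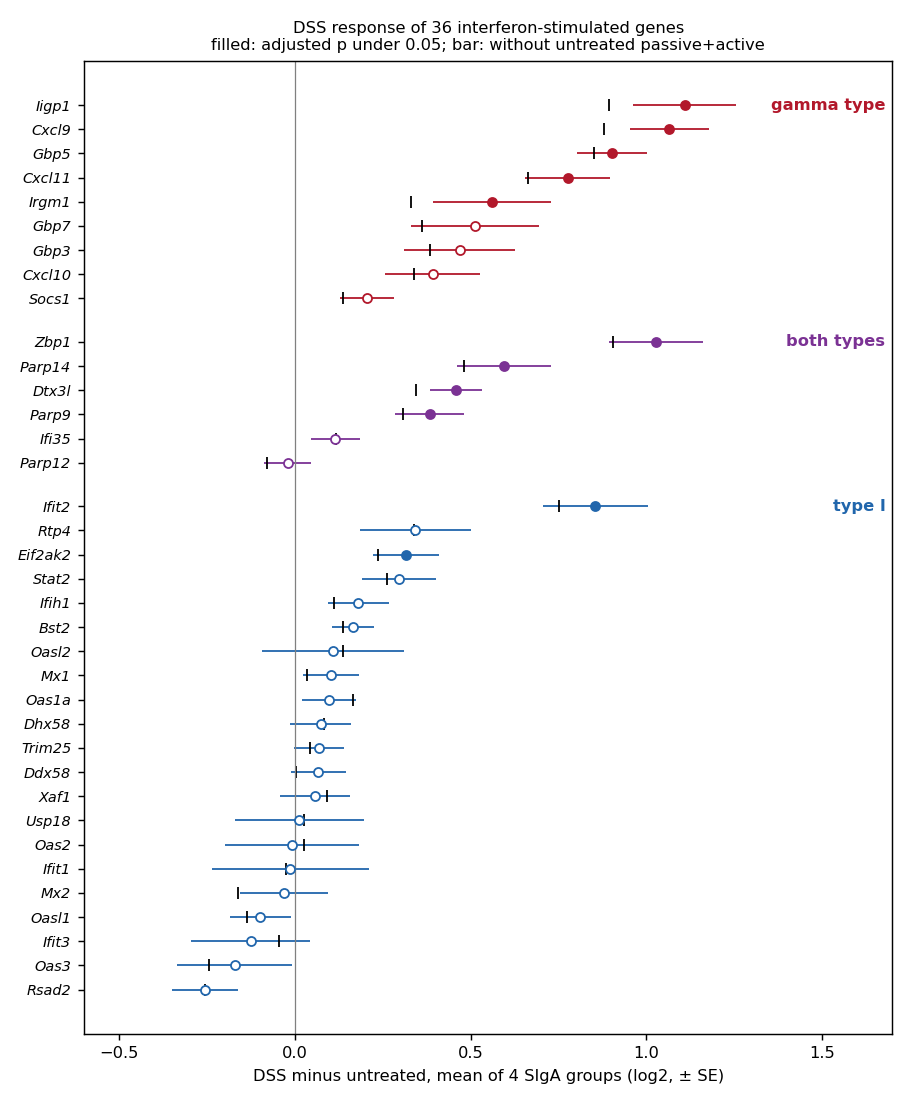
DSS minus untreated for the 36 genes, averaged over the 4 SIgA groups, on the log2 scale (circle ± SE; filled where the adjusted p was under 0.05); the short black bar is the value without the untreated passive and active group. Filled circles mark 5 gamma type genes, 4 genes of both types and 2 type I genes, Ifit2 and Eif2ak2; apart from Ifit2, the type I genes lie within 0.35 of 0.

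Chemokines of the receptor Cxcr3, which draw activated T and natural killer cells, were among the genes that rose. Cxcl9, the chemokine most dependent on interferon gamma, lay at 6.57 and 6.54 in the untreated passive and active pools and at 7.93 and 8.43 after DSS. The passive only pools lay at 6.89 and 6.74 untreated and 7.97 and 7.43 after DSS, the active only pools at 7.17 and 7.56 against 8.15 and 8.28, and the pools with neither at 7.22 and 6.60 against 7.85 and 7.79. Within each SIgA group both DSS pools were above both untreated pools, and across groups only the lowest DSS pool, of passive only, was below the highest untreated one. The mean difference was 1.06 ± 0.11 (SE), a 2.09-fold rise (adjusted p = 3.9e-05).

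Cxcl11 rose by 0.78 ± 0.12 (1.71-fold, adjusted p = 0.000799). Its pools, untreated and then after DSS, were at 6.55 and 6.67 against 7.67 and 7.79 in passive and active, 7.06 and 7.38 against 8.28 and 7.75 in passive only, 7.16 and 7.77 against 7.84 and 8.38 in active only, and 7.44 and 6.97 against 7.73 and 7.78 in neither. Again both DSS pools exceeded both untreated pools of their own group in all 4 groups. Cxcl10, the third ligand of this receptor, ran from 9.28 to 10.64 untreated (median 9.81) and from 9.73 to 10.47 after DSS (median 10.3), and its difference of 0.39 ± 0.14 was not called (adjusted p = 0.0782).

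The interferon-inducible GTPases attack the vacuoles in which pathogens hide. Iigp1, an immunity-related GTPase, had the largest difference of the 36 genes, 1.11 ± 0.15 (2.16-fold, adjusted p = 0.000245). Its pools were at 5.79 and 5.84 untreated against 7.12 and 8.01 after DSS in passive and active, 6.10 and 6.35 against 6.62 and 6.45 in passive only, 5.50 and 5.81 against 6.93 and 6.82 in active only, and 5.78 and 5.37 against 6.26 and 7.21 in neither. The passive and active group had the highest DSS mean, 7.56, though its lower DSS pool (7.12) was below replicate 2 of neither (7.21). In passive only the untreated and DSS pools lay closest together.

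Gbp5, a guanylate-binding protein that promotes inflammasome assembly, rose by 0.90 ± 0.10 (1.87-fold, adjusted p = 6.07e-05). Its pools lay at 4.93 and 5.24 untreated against 6.31 and 5.98 after DSS in passive and active, 4.71 and 4.70 against 5.97 and 5.27 in passive only, 5.22 and 5.28 against 6.16 and 5.88 in active only, and 5.11 and 4.83 against 5.86 and 5.83 in neither. The single DSS pool that did not exceed every untreated pool was replicate 2 of passive only. All Gbp5 values were dim, from 4.70 to 6.31, below the array medians of 6.678 to 6.825. Irgm1, a regulator of the immunity-related GTPases and of autophagy, rose by 0.56 ± 0.17 (adjusted p = 0.0434). Its untreated pools spanned 8.27 to 10.17: they were at 8.27 and 8.51 in passive and active against 9.49 and 9.81 after DSS, 9.47 and 9.08 against 9.56 and 9.64 in passive only, 8.80 and 10.17 against 9.97 and 10.25 in active only, and 9.88 and 9.34 against 9.45 and 9.86 in neither. The treatments overlapped in the last 2 groups, and without the untreated passive and active pools the difference was 0.33 (adjusted p = 0.481).

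The remaining gamma type genes were not called. Gbp7 differed by 0.51 ± 0.18 (adjusted p = 0.0847), Gbp3 by 0.47 ± 0.16 (adjusted p = 0.07) and Socs1, the inhibitor of Janus kinases, by 0.20 ± 0.08 (adjusted p = 0.111). Gbp7 ran from 6.78 to 8.67 untreated and from 7.58 to 8.93 after DSS.

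Of the genes that respond to both types, Zbp1, a sensor of Z-form nucleic acid that can trigger necroptosis, was the one gene of the 36 whose 8 DSS pools all lay above its 8 untreated pools, a separation found upward in 1.58% of all genes. It was at 8.09 and 8.02 untreated against 9.59 and 9.32 after DSS in passive and active, 8.84 and 8.11 against 9.38 and 9.36 in passive only, 8.18 and 8.65 against 9.47 and 9.46 in active only, and 8.86 and 8.01 against 9.06 and 9.35 in neither. The rise was 1.03 ± 0.13 (2.04-fold, adjusted p = 0.0002).

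**Figure D2:**
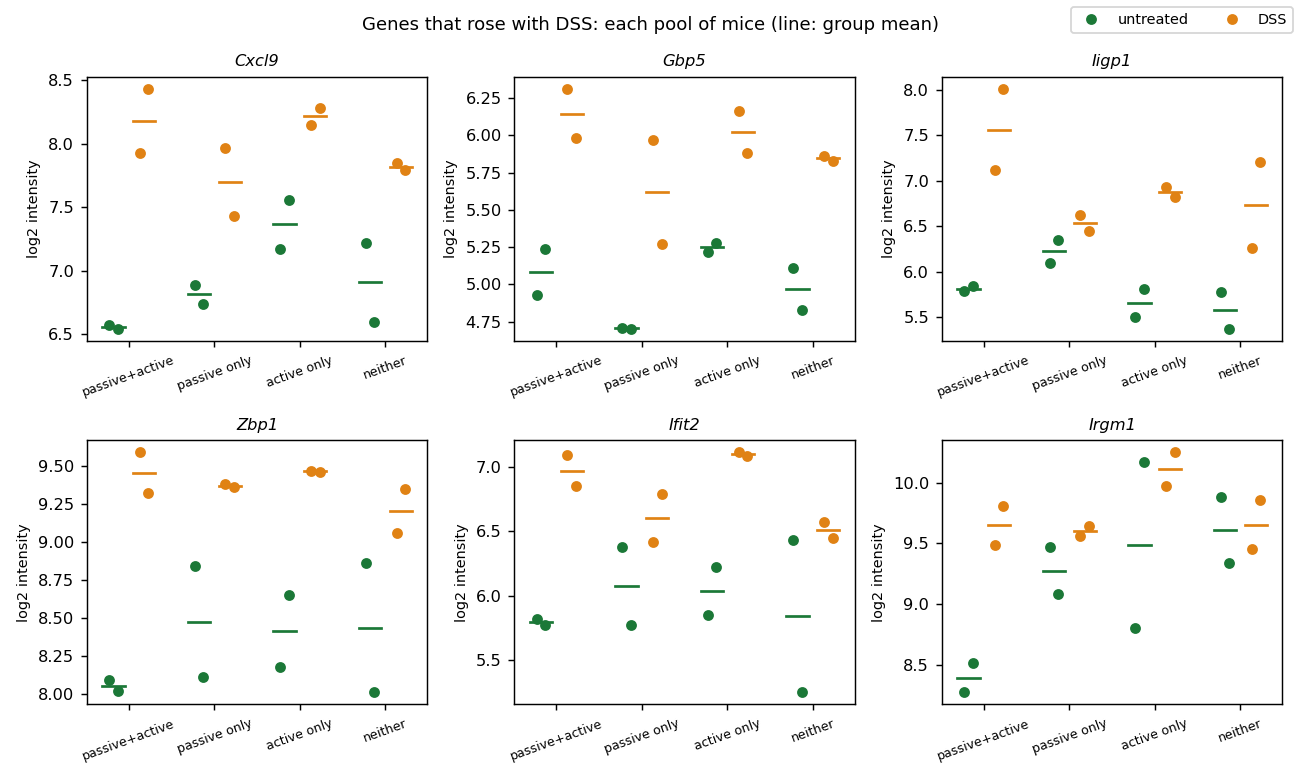
Log2 intensity of 6 genes that rose with DSS, one point per pool of mice, by SIgA group, untreated (green) and after DSS (orange), with group means as lines. Zbp1 shows no overlap between the 8 untreated and 8 DSS pools, whereas untreated Irgm1 spans 8.27 to 10.17 and overlaps the DSS pools.

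Parp9, Dtx3l and Parp14 lie close together on one chromosome, and the gene models of Parp9 and Dtx3l overlap in the RefSeq table. Parp9 and its partner Dtx3l, a ubiquitin ligase, form a complex that modifies chromatin, and Parp14 is a related ADP-ribosyltransferase. All rose: Dtx3l by 0.46 ± 0.07 (adjusted p = 0.0013), Parp14 by 0.60 ± 0.13 (adjusted p = 0.00973) and Parp9 by 0.38 ± 0.10 (adjusted p = 0.0209). Dtx3l was at 8.46 and 8.46 untreated against 9.17 and 9.35 after DSS in passive and active, 9.07 and 8.86 against 8.97 and 9.09 in passive only, 8.54 and 8.98 against 9.31 and 9.51 in active only, and 8.93 and 8.73 against 9.08 and 9.22 in neither. Parp14 was at 7.94 and 8.00 against 8.83 and 8.98, 8.75 and 8.28 against 9.10 and 8.88, 8.28 and 9.25 against 9.24 and 9.57, and 9.10 and 8.57 against 9.11 and 9.21, in the same order. Parp9 was at 8.47 and 8.38 against 8.98 and 9.09, 8.91 and 8.58 against 9.0 and 9.01, 8.39 and 9.05 against 9.26 and 9.28, and 9.09 and 8.72 against 8.85 and 9.18. For all of them the gap between treatments was widest in passive and active, where the untreated mean was lowest. Parp12, an antiviral ADP-ribosyltransferase encoded elsewhere, differed by -0.02 ± 0.07, with a 95% confidence interval from -0.17 to 0.13, and Ifi35 by 0.12 ± 0.07.

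Of the type I genes, Ifit2, an RNA-binding inhibitor of viral translation, rose by 0.85 ± 0.15 (1.81-fold, adjusted p = 0.002). It was at 5.82 and 5.77 untreated against 7.09 and 6.85 after DSS in passive and active, 6.38 and 5.77 against 6.42 and 6.79 in passive only, 5.85 and 6.22 against 7.11 and 7.08 in active only, and 6.43 and 5.25 against 6.57 and 6.45 in neither. Both DSS pools exceeded both untreated pools in every SIgA group. Its neighbours on the same chromosome, Ifit1 and Ifit3, are likewise RNA-binding effectors. Ifit1 differed by -0.01 ± 0.22 (95% interval -0.50 to 0.47) and Ifit3 by -0.13 ± 0.17 (-0.49 to 0.24). The upper bounds for both genes lie below the 0.53 that bounds the Ifit2 rise from below; the genes were not tested against each other.

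Eif2ak2, the kinase that halts translation on binding double-stranded RNA, rose by 0.32 ± 0.09 (1.25-fold, adjusted p = 0.0402). It was at 7.69 and 7.74 untreated against 8.04 and 8.49 after DSS in passive and active, 8.24 and 8.38 against 8.32 and 8.43 in passive only, 7.61 and 8.27 against 8.38 and 8.46 in active only, and 8.29 and 8.15 against 8.37 and 8.40 in neither. Apart from 3 low untreated pools, 2 of passive and active and 1 of active only, untreated and DSS values lay close together, and without the untreated passive and active pools the difference was 0.24 (adjusted p = 0.311). The cytosolic RNA sensors of the same family of functions were not called: Ifih1 differed by 0.18 ± 0.09, Ddx58 by 0.07 ± 0.08 and Dhx58 by 0.07 ± 0.09.

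The oligoadenylate synthetase family, some members of which activate RNase L against viral RNA, had no called member. Oas1a differed by 0.10 ± 0.08, Oas2 by -0.01 ± 0.19, Oas3 by -0.17 ± 0.16, Oasl1 by -0.10 ± 0.09 and Oasl2 by 0.11 ± 0.20. The restriction factors were not called either. Mx1 differed by 0.10 ± 0.08, Mx2 by -0.03 ± 0.12, and Bst2, the tether of budding virus, by 0.17 ± 0.06 (adjusted p = 0.0936). Rsad2, the enzyme viperin, had the lowest difference of the 36 genes, -0.26 ± 0.09 (adjusted p = 0.0931), and in the group with neither SIgA it lay at 8.84 and 8.49 untreated against 8.08 and 7.99 after DSS. Of the signalling genes, Stat2, the transcription factor of the type I pathway, differed by 0.30 ± 0.11 (adjusted p = 0.0861), Usp18, which blocks the type I receptor, by 0.01 ± 0.18 (95% interval -0.38 to 0.41), and Trim25, which activates Ddx58, by 0.07 ± 0.07. Stat2 was at 8.26 and 8.33 untreated against 8.78 and 8.61 after DSS in passive and active, 8.68 and 8.16 against 8.96 and 8.70 in passive only, 8.63 and 8.88 against 8.87 and 9.05 in active only, and 9.07 and 8.39 against 8.81 and 8.98 in neither. Rtp4 and Xaf1 differed by 0.34 ± 0.16 (adjusted p = 0.188) and 0.06 ± 0.10. A p that misses the threshold does not show that these genes were alike with and without DSS, and the intervals of Ifit1, Oas2, Oasl2 and Usp18 are wide enough to hold a difference of 0.32, that of Eif2ak2, in either direction.

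**Figure D3:**
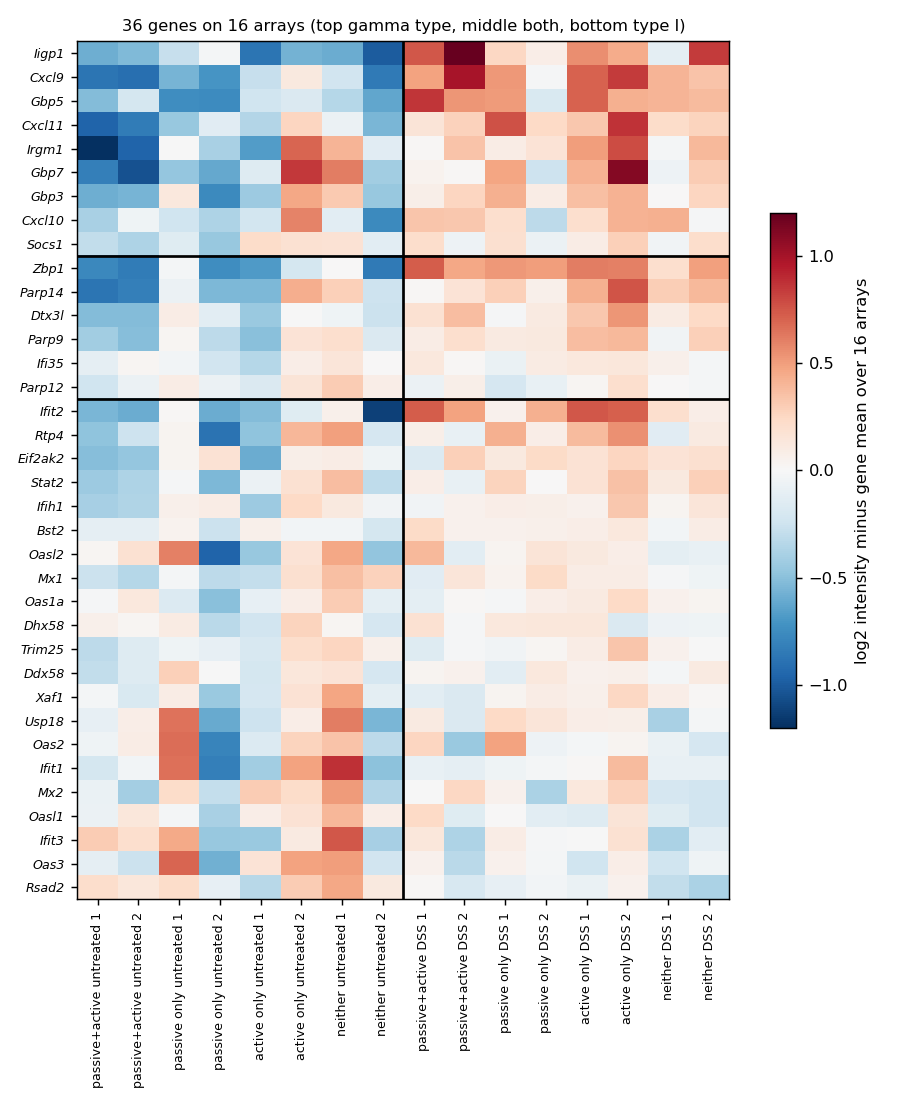
Each gene's log2 intensity minus its mean over the 16 arrays, with untreated arrays to the left of the vertical line and DSS arrays to the right, and the classes parted by horizontal lines. The upper genes turn from blue to red across the vertical line, while many type I genes at the bottom have their reddest and bluest cells among the untreated pools.

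The untreated passive and active pools weighed on these counts. Their group mean was the lowest of the 4 untreated groups in 21 of the 36 genes (58.3%), against 34.8% of all genes. Without those 2 arrays, 7 genes rose: Cxcl9 by 0.88, Gbp5 by 0.85, Zbp1 by 0.91, Iigp1 by 0.90, Cxcl11 by 0.66, Ifit2 by 0.75 and Dtx3l by 0.34. In that fit 2.88% of all genes rose. Parp14 (0.48, adjusted p = 0.112) and Parp9 (0.31, adjusted p = 0.179), like Irgm1 and Eif2ak2, were no longer called. When replicate 1 of untreated active only was also left out, Zbp1, Iigp1, Gbp5, Cxcl9 and Cxcl11 were still called, between 0.56 and 0.84, while Rsad2 fell by 0.36 (adjusted p = 0.0424). There 2.5% of all genes rose and 3.05% fell, and the class medians were 0.23 for gamma type genes, 0.23 for genes of both types and -0.03 for type I genes.

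Within single SIgA groups, each a comparison of 2 pools with 2, the DSS response was called mostly in passive and active. In that group 9 of the 36 genes rose, against 3.56% of all genes. Iigp1 rose 3.36-fold (1.75 ± 0.29), Cxcl9 3.08-fold (1.62 ± 0.22), Zbp1 2.63-fold (1.40 ± 0.27) and Irgm1 2.39-fold (1.25 ± 0.34). Ifit2, Cxcl11, Gbp5, Parp14 and Dtx3l rose by 0.79 to 1.17. These differences rest on the untreated arrays that stand apart, so they have no value without them. With 1 array less the count was 4 without DSS replicate 2, where 1.15% of all genes rose, and 5 without either untreated pool, where 1.43% and 1.19% did.

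In passive only 1 gene rose, Gbp5, by 0.91 ± 0.20 (adjusted p = 0.0346), against 0.893% of all genes. With each of the 16 arrays left out in turn 0 to 2 members rose: none without either untreated pool, DSS replicate 1 or either DSS pool of neither. The shares of all genes in those passive only fits are not given here. In active only and in neither no member was called (limma), where 0.622% and 0.492% of all genes rose. At an unadjusted p under 0.05 (limma), in either direction, there were 10 of 36 members (27.8%) in each, against 12.8% and 9.14% of all genes. Those of neither included falls of type I genes: Rsad2 differed by -0.635, Oasl1 by -0.427 and Mx1 by -0.347. Without replicate 2 of untreated active only, 7 members and 2.05% of all genes rose in that group, with the lone untreated pool assumed to vary like the other groups. In passive only, active only and neither, in that order, Gbp5 differed by 0.91, 0.77 and 0.87, Cxcl9 by 0.89, 0.85 and 0.91, and Zbp1 by 0.89, 1.05 and 0.77. Iigp1 differed by 0.31, 1.22 and 1.16, Irgm1 by 0.32, 0.62 and 0.04, Dtx3l by 0.07, 0.65 and 0.32, and Parp14 by 0.47, 0.65 and 0.33. The median of the gamma type genes was 1.06 in passive and active, 0.57 in passive only, 0.62 in active only and 0.55 in neither; in active only it was 0.01 without replicate 1 of the untreated pools (in the fit that also leaves out untreated passive and active). The median of the type I genes was 0.05, 0.16, 0.17 and -0.14 in the same order.

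Whether the DSS response differed with SIgA was tested directly. No member was called in the F test over the 4 responses (smallest adjusted p = 0.324), where 1.38% of all genes were. No member was called for the interaction of DSS with passive SIgA, where 0.115% of all genes were, or with active SIgA, where 0.843% were. At an unadjusted p under 0.05 the limma fit held 8.33% of members against 10.6% of all genes in the F test, 5.56% against 8.14% for passive SIgA and 11.1% against 12% for active SIgA. Without replicate 2 of untreated active only, 2 members and 2.64% of all genes were called for active SIgA. With all arrays, the smallest adjusted p of the F test and the interactions was that of Dtx3l with active SIgA. Its response without active SIgA was smaller by 0.53 ± 0.15 (limma, adjusted p = 0.143, 95% interval of the difference -0.85 to -0.21). For Iigp1 the same difference was -0.75 ± 0.29 (adjusted p = 0.322), and for Irgm1 -0.75 ± 0.34 (adjusted p = 0.405). Without the untreated passive and active group, the interactions set the DSS response of neither against that of passive only or active only. The F test then covered the remaining responses. No gene in the whole series was called in any of these tests. The differences with active SIgA were -0.33 ± 0.22 for Dtx3l, -0.06 ± 0.43 for Iigp1 and -0.58 ± 0.49 for Irgm1. Without replicate 1 of untreated active only as well, they were -0.11, 0.09 and 0.11, so that those of Iigp1 and Irgm1 changed sign.

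The SIgA groups were also compared under one treatment. In untreated mice, without minus with passive SIgA, no member was called (10 of 36, or 27.8%, at an unadjusted p under 0.05, against 19.9% of all genes), where 2.58% of all genes were. Gbp7 differed by 0.96 ± 0.26 (adjusted p = 0.0668, limma) and Socs1 by 0.43 ± 0.11 (adjusted p = 0.0612). Without the untreated passive and active pools, the comparison was neither minus passive only. There 3 of 36 (8.33%) had an unadjusted p under 0.05, against 6.92% of all genes, and the smallest adjusted p was 0.55. Without replicate 1 of untreated active only, 4 members and 2.73% of all genes were called. For active SIgA in untreated mice no member was called (5 of 36, or 13.9%, unadjusted, against 28% of all genes), where 7.49% of all genes were. The smallest adjusted p (limma) was that of Eif2ak2, 0.0616, with a difference of 0.44 ± 0.13. Without the untreated passive and active pools, as neither minus active only, its difference was 0.28 (adjusted p = 0.513). It was -0.05 without replicate 1 of untreated active only as well. Without replicate 2 of untreated active only, 7 members were called, and 23.7% of all genes. After DSS no member was called for passive SIgA (0 of 36 unadjusted, against 3.95% of all genes; 0% of all genes called) or for active SIgA (5 of 36, or 13.9%, unadjusted, against 1.66% of all genes; 0.00502% of all genes called). The 9 gamma type differences without minus with active SIgA after DSS all lay below 0, from -0.59 to -0.03. So did those of the 6 genes of both types, from -0.24 to -0.08, while 7 of 21 type I genes lay above 0. Of all genes, 10250 of 19938 lay above 0. Genes measured in the same pools are not independent, so this is a description.

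The spread between pools was examined after the values had been seen. All 21 type I genes had a wider spread between the replicates of a group in untreated than in DSS mice, with a median SD of 0.32 against 0.14. The 6 genes of both types were also all wider untreated (0.24 against 0.12), the gamma type genes were so in 5 of 9 (0.29 against 0.26), and 54.6% of all genes were (0.15 against 0.14). Genes measured in the same pools are not independent, so these counts are a description.

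Within 3 of the 4 untreated groups the pools mostly differed in one direction over all 3 classes. In untreated neither, replicate 1 was above replicate 2 in 21 of 21 type I genes (median gap 0.59), 6 of 6 genes of both types (0.30) and 9 of 9 gamma type genes (0.54), against 11167 of all 19938 genes (0.14). In untreated passive only it was above in 19 of 21 (0.51), 6 of 6 (0.26) and 7 of 9 (0.25), against 10911 of all genes (0.13). In untreated active only it was above in 2 of 21 (0.41), 0 of 6 (0.46) and 1 of 9 (0.60), against 12099 of all genes (0.24). The untreated passive and active pools were close, at a median gap of 0.14 for type I genes, and after DSS the type I median gaps of the 4 groups were 0.10 to 0.21, while gamma type genes reached 0.51 in passive only. Differences between replicates correlated above 0.1 in 14 of 28 pairs of groups (range -0.30 to 0.67). Whether same-numbered pools of different groups were handled together is not given in the labels and was not tested.

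Ifit1 and Usp18 show the pattern most plainly. Ifit1 was at 7.94 and 8.12 untreated in passive and active, 8.81 and 7.33 in passive only, 7.73 and 8.63 in active only and 9.03 and 7.66 in neither, and after DSS all but 1 of its 8 pools lay between 8.04 and 8.16, the other at 8.53. Usp18 was at 7.32 and 7.5, 8.07 and 6.81, 7.17 and 7.5, and 8.03 and 6.87 untreated, and between 7.03 and 7.65 after DSS. Of the 19938 genes they were the 2 whose replicate 1 exceeded replicate 2 by more than 1 in both untreated passive only and untreated neither, and no gene did the opposite in both. A gap above 1 in either direction was found in 16 genes in untreated passive only, 5 of them members (Ifit1, Oas2, Oas3, Oasl2 and Usp18), and in 17 genes in untreated neither, again 5 of them members (Ifit1, Ifit2, Ifit3, Usp18 and Gbp7).

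**Figure D4:**
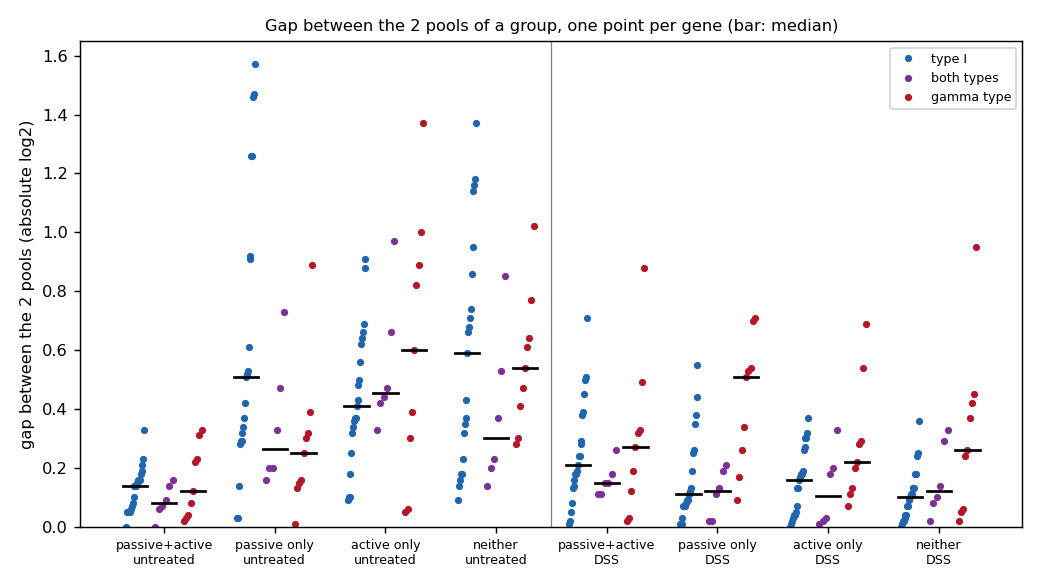
Absolute log2 gap between the 2 pools of each group, one point per gene, by class, with the class median as a bar. Type I genes reach gaps of up to 1.57 in untreated passive only and 1.37 in untreated neither, while after DSS their class medians lie between 0.10 and 0.21.

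**Figure D5:**
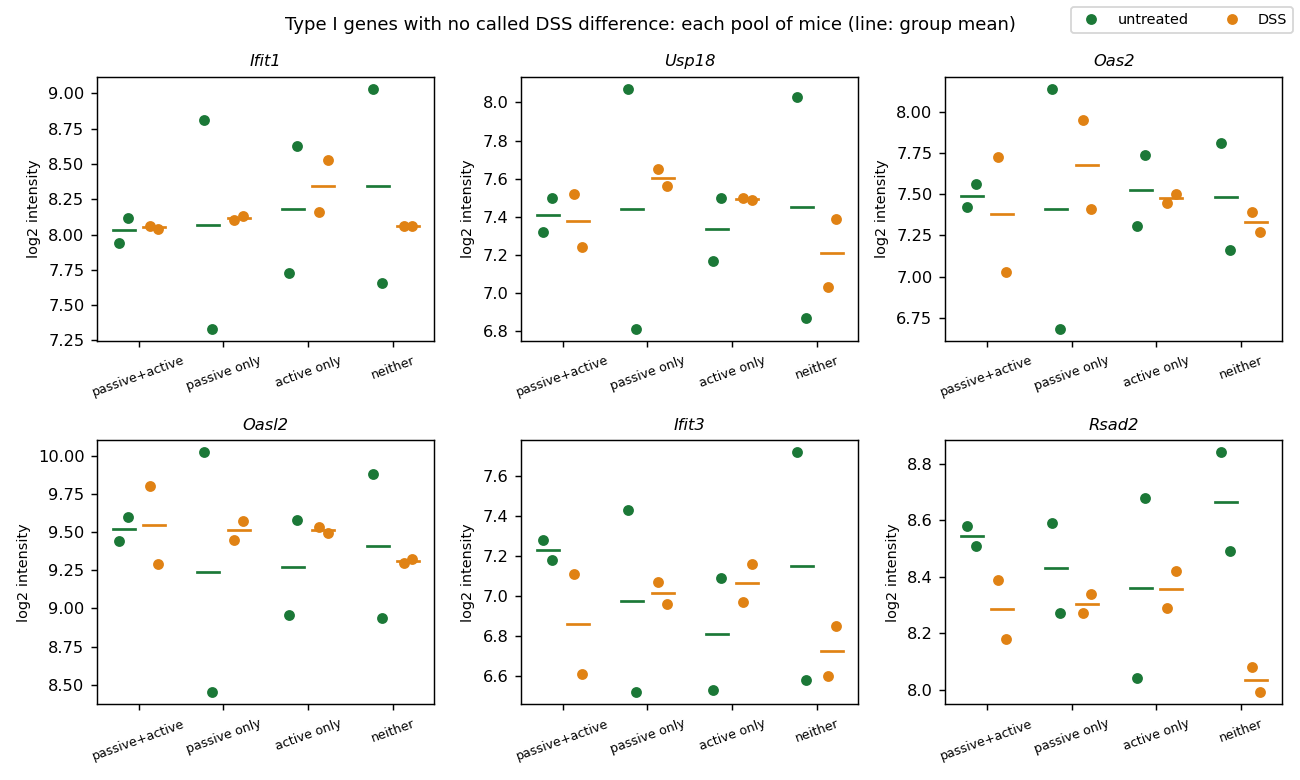
Log2 intensity of 6 type I genes without a called DSS difference, one point per pool, by SIgA group, untreated (green) and after DSS (orange), with group means as lines. Ifit1 and Usp18 have their highest and lowest values among untreated pools of passive only and neither.

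With DSS, 6.4% of all genes rose and 6.73% fell. Upstream in the pathway, none of 16 measured interferon genes was called. Their mean level was low, 5.72 to 6.21 untreated and 5.74 to 6.11 after DSS, below the array medians of 6.678 to 6.825. The lack of a call does not show that they were unchanged. Ifng, the gene of interferon gamma, ran from 5.98 to 6.59 and Ifnb1, the gene of interferon beta, from 4.65 to 5.42 over the 16 arrays. Of 9 receptors and kinases, Ifnar2 rose, by 0.53 ± 0.07 (adjusted p = 0.000387), while Ifnar1 differed by 0.17 ± 0.06 (adjusted p = 0.079). Of 10 transcription factors, Irf8, typical of myeloid cells and inducible by interferon gamma, rose by 0.55 ± 0.07 (adjusted p = 0.000122) and Batf2 by 0.41 ± 0.08 (adjusted p = 0.00607), whereas Irf7, the amplifier of type I interferon production, fell by 0.53 (SE 0.11, adjusted p = 0.00632). Irf1 differed by 0.22 ± 0.09 (adjusted p = 0.113).

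Of 8 measured genes that induce interferon, the adaptor Myd88 rose by 0.31 ± 0.06 (adjusted p = 0.00409) and the double-stranded RNA receptor Tlr3 by 0.34 ± 0.08 (adjusted p = 0.0155), the latter not without the untreated passive and active pools (0.24, adjusted p = 0.217). Of 8 negative regulators, Socs3, a feedback inhibitor of interleukin 6 type signals, rose by 1.13 ± 0.07 (adjusted p = 5.21e-07), and Cish fell by 0.26 (adjusted p = 0.0397; 0.104 without the untreated passive and active pools). Of 47 other interferon-stimulated genes, 14 rose and 2 fell, with a median of 0.18, against 6.4% and 6.73% of all genes. Without the untreated passive and active pools 11 rose and 1 fell, against 574 and 636 of all 19938 genes. Ido1, which degrades tryptophan and is a classic target of interferon gamma, rose by 1.79 ± 0.20 (adjusted p = 7.6e-05). Wars, the tryptophanyl-tRNA synthetase, rose by 0.42 ± 0.05, Ifitm1 by 0.87 ± 0.10 and Slfn2 by 0.73 ± 0.09.

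Markers of some immune cells moved with the same contrast, in which 6.4% of all genes rose and 6.73% fell. Of 15 neutrophil markers 10 rose and none fell, their mean level running from 5.93 to 6.35 on untreated arrays and from 6.59 to 7.13 on DSS arrays. Of 15 macrophage and dendritic cell markers 9 rose and none fell (6.13 to 6.43 against 6.55 to 6.77), among them Cd14, Fcer1g, Tyrobp and Itgam. These cells also express several of the genes described, and the part of their RNA in the rise was not tested. Of 18 T and natural killer cell markers none was called (5.80 to 6.18 against 5.90 to 6.04), and of 5 plasmacytoid dendritic cell markers only Tcf4 was, at 0.22. The T and natural killer cell means lay below the array medians of 6.678 to 6.825. The lack of a call does not show an unchanged number of these cells. Of 8 B and plasma cell markers 2 fell, Igha and Sdc1, of 8 fibroblast markers 2 rose, Dcn and Vim, and of 7 endothelial markers none was called. The epithelial markers were at a mean level of 12.00 to 12.13 untreated and 12.00 to 12.12 after DSS, and 1 of 12, Krt18, fell, by 0.20. Without the untreated passive and active pools Tcf4, Igha and Krt18 were no longer called, while Sdc1 was.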

How the data were processed

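Whole-transcript Affymetrix arrays measured total RNA from 16 pools, whose RNA integrity numbers per the labels were 8.5 or higher. The deposited values are log2 intensities made with RMA, per the submitters' processing notes; the sources used here do not give its version. RMA quantile-normalizes arrays, so a shift shared by most genes would not be seen. Of 35557 probe sets, 21789 named 1 gene, 1621 several and 12147 none in the platform annotation. Those with 1 gene were used, and 999 genes that had several such probe sets were represented by the brightest, leaving 19938 genes.

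A mean was fitted for each of the 8 groups with limma 3.58.1 in R 4.3.3 (lmFit, eBayes; 8 residual degrees of freedom), and p-values were adjusted over all 19938 genes (Benjamini-Hochberg). Genes past an adjusted p of 0.05 were called. In all, 12 contrasts were fitted: DSS averaged and within each SIgA group, passive and active SIgA within each treatment, and interactions. Without the untreated passive and active group, the DSS average was taken over the SIgA groups that remain. In untreated mice, passive SIgA was then neither minus passive only, and active SIgA neither minus active only. The interactions were differences between the DSS responses of these same pairs, so they are other contrasts than those with all arrays. The script was tested on simulated data. Values are given on every array for members called for the DSS average, for any SIgA contrast or interaction, and for the 3 of each class with the smallest p; of other lists, up to 4 genes with the smallest p are named, and genes named outside these rules were picked with their values in view. The members and lists were chosen with earlier results of these data known. Depth has no counterpart on arrays: their number, 2 per group, limits the precision. Same-numbered replicates did not deviate together in every pair of groups and were not paired. Alternatives changed the normalization, centring, filter, probe set choice, prior variance, threshold and arrays used.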

Additional observations from a re-analysis of the deposited data

How the results depend on the processing

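Cxcl9, Cxcl11, Gbp5, Iigp1 and Zbp1 were past the threshold for the DSS average under each of 25 alternative settings that tested them (Gbp5 was not among the genes tested once the dimmest 30% were left out). Dtx3l and Ifit2 were lost in 1 setting each, Parp14 in 2, Parp9 in 6, Irgm1 in 15 and Eif2ak2 in 17; none of the 11 changed direction. The count of members that rose was 7 without the untreated passive and active group and 5 without that group and replicate 1 of untreated active only, where 1 member fell; 1 also fell at an adjusted p under 0.1. With each array left out in turn it was 8 to 16, and 0 to 1 fell. Within passive and active the count that rose was then 4 to 12: 4 without DSS replicate 2, and 5 without either untreated pool. Leaving out 1 array gave 0 to 2 in passive only, 0 to 7 in active only and 0 to 1 in neither. It gave 0 to 4 for passive and 0 to 7 for active SIgA in untreated mice, and 0 to 2 for the interaction with active SIgA. The highest of these in active only, for active SIgA and for the interaction came without replicate 2 of untreated active only, and the highest for passive SIgA without replicate 1 of that group.

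With the replicate block, though only 14 of 28 pairs of groups had same-numbered deviations correlated above 0.1 (range -0.30 to 0.67), 2 members rose in active only, 1 rose in neither, and 1 was called for passive and 1 for active SIgA in untreated mice. A trend in the prior variance gave 2 in passive only, 2 in active only, 2 for passive and 1 for active SIgA in untreated mice. Quantile normalization gave 2 in active only and 1 in neither, median centring 1 in neither, and leaving out the dimmest 30% of genes 1 in active only. An adjusted p under 0.1 gave 2 in passive only, 3 in active only, 3 in neither, 3 for passive and 1 for active SIgA in untreated mice. The shares of all genes called under these settings are not given here, so these counts cannot be set against them. The same holds for the ranges with 1 array left out for the DSS average, in passive only and in neither. It also holds for the upper end of that range within passive and active. The causes were not tested.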
